A study of Homo sapiens with 18 samples.

Results

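Replacement histones are histone proteins that can be put into chromatin outside S phase, and their supply is described here together with 2 proteins that serve the other histone genes. Of the 17017 genes in the count table, 9 were chosen by name, not by a threshold on their measured values. They are the histone mRNA-binding protein gene SLBP, the histone gene activator NPAT, the H2A.Z genes H2AZ1 and H2AZ2, H2AX, the H3.3 genes H3-3A and H3-3B, the linker histone gene H1-10 and the macroH2A gene MACROH2A1. The 9 genes, and the gene lists used further on, were chosen with earlier results of these data known. The study knocked down fibrillarin (FBL), the methyltransferase of box C/D small nucleolar ribonucleoproteins that places 2′-O-methyl groups on ribosomal RNA, in MDA-MB-231, an established human line from a triple-negative breast carcinoma. All 3 treatments were lentiviral transductions with pLKO.1 vectors followed by puromycin selection: a scramble hairpin (SC) and the FBL hairpins called SH2 and SH3. The labels do not say which of these was the study's knockdown 1 and which its knockdown 2, and they describe selected transduced cells, not clones. Each treatment had 3 replicates, and each lysate of cycloheximide-treated cells gave 1 library of input cytoplasmic RNA (IN, here "RNA") and 1 of ribosome-protected fragments (RPF, here "footprints"), which makes 18 libraries. Nothing in the labels says that replicates were separate transductions, so p-values measure the spread between these samples, which may be technical.

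RNA libraries held 23469830 to 27629488 counts and footprint libraries 1662705 to 6098648. FBL RNA was 388 ± 36.4 CPM (read counts scaled to a common library total; mean ± SD, n = 3) in SC, 5.67 ± 5.09 in SH2 and 3.49 ± 0.612 in SH3. The highest value under a hairpin was 11.2 CPM, in SH2 replicate 3. Of the markers expected in this line, VIM, CD44, AXL, EGFR and FOSL1 were all present in RNA (VIM 5579 CPM in SC). The hormone receptor genes ESR1 and PGR had 0 to 2 counts in every RNA library, while ERBB2, listed among the markers expected to be low, had 83.4 to 95.3 CPM as group means. EPCAM, on the same list, had 5.66 to 7.94 CPM, and CDH1 had 1 to 11 counts per RNA library.

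Most histone mRNAs are made in S phase, end in a stem-loop in place of a poly(A) tail, and depend on SLBP, which binds the stem-loop through processing, export, translation and decay. NPAT, a target of cyclin E with CDK2, activates transcription of those genes in histone locus bodies. Replacement histone genes often contain introns, give mostly polyadenylated mRNA and are transcribed through the cell cycle. H2A.Z marks promoters and enhancers, H2A.X is phosphorylated around DNA double-strand breaks, H3.3 is placed on active genes, enhancers and telomeres, and macroH2A carries a large extra domain and is often found in repressed chromatin. H2AX is known to give both a stem-loop mRNA and a longer polyadenylated one. How RNA was selected for sequencing is not given in the sources used here, so it is not known which of these forms the counts cover.

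The promoters of 4 of the genes are shown because H2AZ1, H2AZ2 and H2AX RNA fell under both hairpins, as given further on, whereas H3-3B RNA passed the test under neither. Each is read 5′ to 3′ on the gene's strand from RefSeq (GRCh38.p14), from 250 bases before the transcription start to 30 bases after it. All 4 lie on the minus strand, H2AZ1 at chr4:99950246-99950525, H2AZ2 at chr7:44848058-44848337, H2AX at chr11:119095436-119095715 and H3-3B at chr17:75779750-75780029. Capitals mark CCAAT boxes (CCAAT, or ATTGG where the box is on the other strand), TATAAA, and TTTGAA or its reverse complement TTCAAA.
H2AZ1: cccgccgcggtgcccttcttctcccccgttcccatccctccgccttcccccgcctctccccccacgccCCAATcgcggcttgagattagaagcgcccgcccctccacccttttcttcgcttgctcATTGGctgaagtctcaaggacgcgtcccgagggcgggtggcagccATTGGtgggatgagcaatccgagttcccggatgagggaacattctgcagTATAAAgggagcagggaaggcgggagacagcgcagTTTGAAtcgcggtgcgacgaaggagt
H2AZ2: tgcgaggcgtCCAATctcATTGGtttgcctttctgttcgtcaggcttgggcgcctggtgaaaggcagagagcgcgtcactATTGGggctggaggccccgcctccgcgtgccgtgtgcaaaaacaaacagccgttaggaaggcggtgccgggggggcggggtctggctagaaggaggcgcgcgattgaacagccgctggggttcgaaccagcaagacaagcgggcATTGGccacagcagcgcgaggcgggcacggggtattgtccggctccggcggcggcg
H2AX: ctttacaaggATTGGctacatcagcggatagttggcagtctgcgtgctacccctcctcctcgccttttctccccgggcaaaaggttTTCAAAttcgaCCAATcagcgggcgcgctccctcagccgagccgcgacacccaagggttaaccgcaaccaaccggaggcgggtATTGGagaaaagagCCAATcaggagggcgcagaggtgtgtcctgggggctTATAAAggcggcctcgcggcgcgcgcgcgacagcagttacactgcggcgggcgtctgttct
H3-3B: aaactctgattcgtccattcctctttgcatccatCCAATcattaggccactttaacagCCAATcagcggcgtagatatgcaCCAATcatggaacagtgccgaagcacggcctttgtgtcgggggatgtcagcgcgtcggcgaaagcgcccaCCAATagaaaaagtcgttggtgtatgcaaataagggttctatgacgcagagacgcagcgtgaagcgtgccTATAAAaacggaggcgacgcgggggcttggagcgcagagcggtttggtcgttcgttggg
The H2AZ1 promoter held 3 CCAAT boxes and those of H2AZ2, H2AX and H3-3B 4 each. A CCAAT box was found in 33.65% of the 35116 RefSeq promoter windows of the same 280 bases, TATAAA in 11.22% and TTTGAA in 14.52%, on either strand. TATAAA was present in the H2AZ1, H2AX and H3-3B windows and not in that of H2AZ2, and TTTGAA in those of H2AZ1 and H2AX. Any of the E2F-type letters searched (TTTGGCGC, TTTCCCGC and TTTCGCGC, both strands) was present in 2.61% of windows, and none was in the windows of the 9 genes. Among the genes not printed, the NPAT window held 2 CCAAT boxes and those of SLBP and H1-10 0. By transcription start, H3-3A windows held 0 or 1 and MACROH2A1 windows 0 or 2. The H1-10 window held 1 TATAAA and no TTTGAA, and the windows of SLBP, NPAT, H3-3A and MACROH2A1 held neither. The shares over all windows count those with at least 1 match, so they do not scale the number of boxes. The part of these letters in the RNA changes was not tested. A match of letters is a description of the sequence only.

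**Figure D1:**
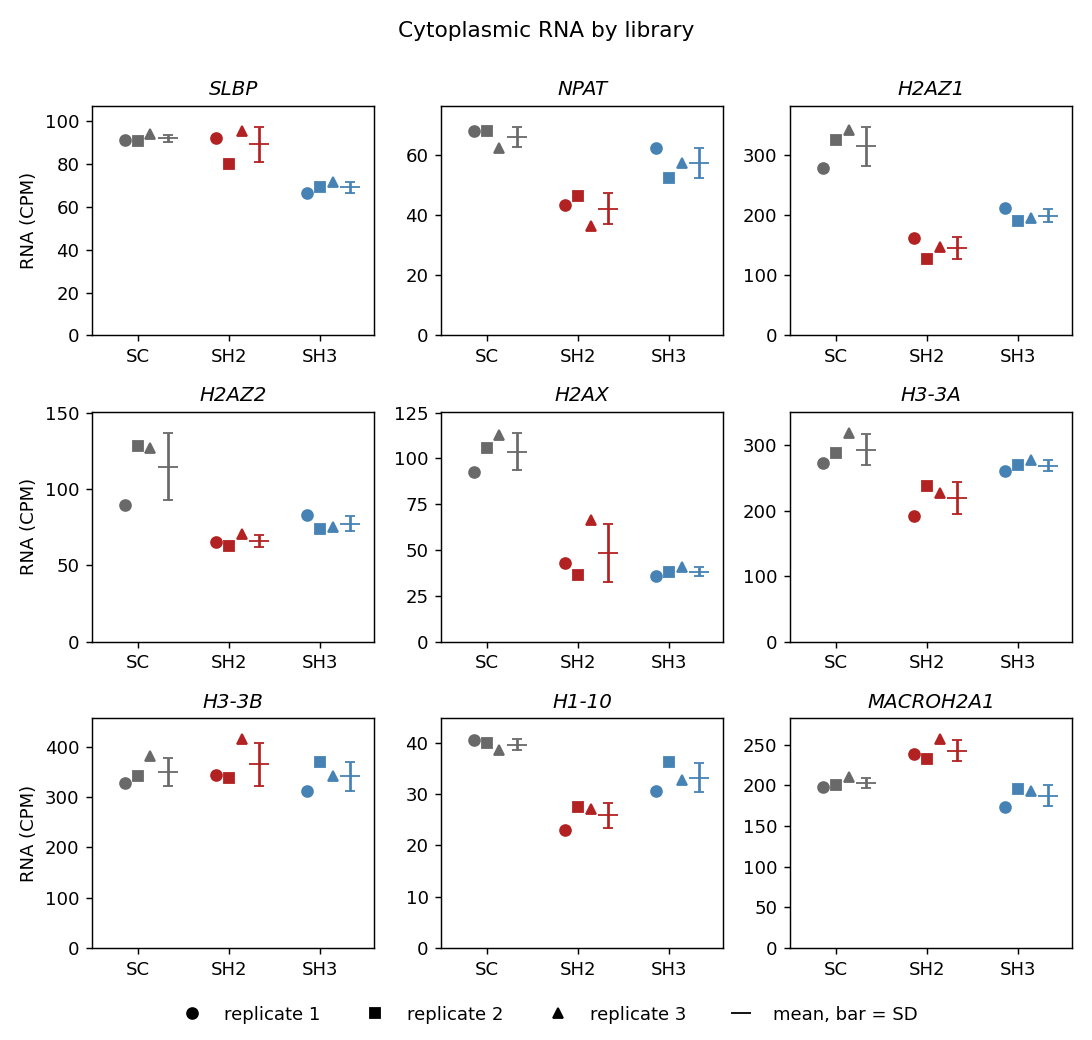
RNA of the 9 genes in each IN library (vertical axes, CPM scaled with TMM, each starting at 0) by treatment, with replicates as points and the group mean ± SD (n = 3) as a bar. H2AZ1, H2AZ2, H2AX and H1-10 lie below every SC library under both hairpins, NPAT and H3-3A only under SH2, and SLBP only under SH3. MACROH2A1 lies above SC under SH2 and below it under SH3.

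A gene was called changed where edgeR's quasi-likelihood test, with Benjamini-Hochberg adjustment over all genes tested, gave an adjusted p under 0.05. All 9 genes passed the filter on low counts, with the lowest single count at 46 (H2AX footprints, SH3 replicate 1). In RNA, 6 of the 9 were called lower and 1 higher under SH2, against 30.4% of the 12710 genes tested called lower and 31.1% called higher. Under SH3, 4 of the 9 were called lower and 0 higher, against 25.2% of genes called lower and 27.8% called higher. The 9 genes' median log2 change in RNA was −0.62 under SH2 and −0.26 under SH3, beside 0.01 and 0.03 over all genes tested. Both hairpins are set against the same 3 SC libraries, so their changes are not independent of each other. Whether groups of libraries overlap is given below for each gene as a description only. The share of all genes without overlap was not counted. These are bulk samples, in which fewer cells in S phase and less RNA per cell cannot be told apart.

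SLBP, the stem-loop binding protein, behaved differently under the 2 hairpins in RNA. Its RNA was 91.4, 90.7 and 94.1 CPM in SC replicates 1 to 3, 92.3, 80.1 and 95.7 in SH2, and 66.6, 69.2 and 71.6 in SH3. The SH3 libraries were all below the other 6, while SH2 and SC overlapped. The log2 change was −0.41 ± 0.09 (SE; adjusted p = 0.00189) under SH3 and −0.04 ± 0.09 (adjusted p = 0.70) under SH2. The difference between the hairpins, SH2 against SH3, was itself called at 0.37 ± 0.09 (adjusted p = 0.00599).

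SLBP footprints were 124, 134 and 128 CPM in SC, 116, 103 and 93.6 in SH2, and 79.0, 85.3 and 91.8 in SH3. Here the 3 groups did not overlap, with SC highest and SH3 lowest. The change under SH3 was called (−0.59 ± 0.14, adjusted p = 0.00343) and that under SH2 was not (−0.31 ± 0.13, adjusted p = 0.0733). Over all 9 genes, 3 were called lower in footprints under each hairpin and 0 higher, against 23.2% of the 10345 genes tested called lower under SH2 and 19.0% under SH3. The shares called higher were 21.0% and 16.9%.

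NPAT, the coactivator of replication-dependent histone genes, fell in RNA under SH2 and was not called under SH3. Its RNA was 68.0, 67.9 and 62.2 CPM in SC, 43.4, 46.4 and 36.4 in SH2, and 62.4, 52.4 and 57.1 in SH3. All SH2 libraries were below all others, and SH3 replicate 1 lay just above the lowest SC library. The log2 change was −0.65 ± 0.11 (adjusted p = 0.000157) under SH2, and −0.20 (adjusted p = 0.127) under SH3. The SH3 value passed the threshold in 3 of 15 alternatives: with only the groups compared (adjusted p = 0.0474), without SH2 replicate 3 (adjusted p = 0.0470) and without SH3 replicate 1 (−0.31, adjusted p = 0.0469). The hairpins differed by −0.45 ± 0.11 (SH2 against SH3, adjusted p = 0.00546).

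NPAT footprints did not pass the test under either hairpin. They were 28.4, 27.0 and 33.6 CPM in SC, 23.7, 23.8 and 25.3 in SH2, and 27.5, 33.9 and 27.3 in SH3. The SH2 libraries lay below the other 6, with a log2 change of −0.30 (adjusted p = 0.169), and SH3 was level with SC (−0.01, adjusted p = 0.984). These values rest on 47 to 189 counts per library.

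NPAT and ATM, the DNA damage kinase that phosphorylates H2A.X, are transcribed away from each other, and their RefSeq promoter windows overlap by 72 bases. ATM RNA was 116, 138 and 121 CPM in SC and 84.2, 111 and 76.8 in SH2, with no overlap, and 120, 111 and 122 in SH3. ATM fell under SH2 (−0.46 ± 0.13, adjusted p = 0.00567) and was not called under SH3 (−0.09, adjusted p = 0.591), and SH2 against SH3 was called at −0.38 (adjusted p = 0.029). In each of these 3 RNA comparisons ATM and NPAT had the same sign and the same call. Over all genes tested, 30.4% were called lower under SH2 and 39.3% were called between hairpins. How many genes share the whole pattern was not counted, and the part of the shared window was not tested. ATM footprints were not called under SH2 (0.11) or SH3 (0.31).

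H2AZ1 and H2AZ2, which encode near-identical H2A.Z proteins, both fell in RNA under both hairpins. H2AZ1 RNA was 278, 324 and 341 CPM in SC, 163, 127 and 147 in SH2, and 211, 190 and 196 in SH3. The 3 groups did not overlap, and SH2 was the lowest. The log2 change was −1.11 ± 0.11 (adjusted p = 1.66e-06) under SH2, which left 46.2% of the SC level, and −0.66 ± 0.11 (adjusted p = 0.000217) under SH3, which left 63.3%. SH2 was lower than SH3 by the test of that difference (−0.45 ± 0.11, adjusted p = 0.00528).

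H2AZ2 RNA was 89.4, 128 and 127 CPM in SC, 65.6, 62.5 and 70.5 in SH2, and 83.0, 73.7 and 75.5 in SH3. SC replicate 1 was the lowest of its group, but still above every hairpin library. The changes were −0.79 ± 0.13 (adjusted p = 0.000103) under SH2 and −0.57 ± 0.13 (adjusted p = 0.00182) under SH3. The hairpins' difference was not called (−0.22, adjusted p = 0.175).

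In footprints the H2A.Z genes gave fewer calls than in RNA. H2AZ1 had 954, 638 and 637 CPM in SC, 282, 327 and 384 in SH2, and 690, 493 and 480 in SH3. SH2 lay below all other libraries, and SH3 replicate 1 was within the SC range. The change was called under SH2 (−1.17 ± 0.19, adjusted p = 0.000135) and not under SH3 (−0.43 ± 0.18, adjusted p = 0.0808). The SH3 value passed the threshold in 3 of 15 alternatives: with no filter on low counts (adjusted p = 0.0224), without SC replicate 2 (−0.52, adjusted p = 0.0376) and without SH3 replicate 1 (−0.60, adjusted p = 0.0290). Without SC replicate 1 it was −0.19. The difference between hairpins was called (−0.74 ± 0.19, adjusted p = 0.00898), and was the only one among the 9 genes in footprints, where 23.8% of all genes tested were called. Without SH3 replicate 1 it was −0.56 with an adjusted p of 0.0529.

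H2AZ2 footprints were 217, 101 and 123 CPM in SC, 95.2, 117 and 115 in SH2, and 97.8, 101 and 98.9 in SH3. SC replicate 1, the deepest footprint library, stood well above the other 8, which overlapped between SC and both hairpins. The change was −0.44 ± 0.21 (adjusted p = 0.105) under SH2 and −0.58 ± 0.22 (adjusted p = 0.0478) under SH3. The SH3 call was lost in 11 of 15 alternative settings, among them leaving out any 1 hairpin replicate or SC replicate 1. Without SC replicate 1 the change was −0.17 (adjusted p = 0.427). The SH2 value passed the threshold in 2 of 15, at −0.64 (adjusted p = 0.00998) without SC replicate 2 and with no filter on low counts (adjusted p = 0.0254), and was −0.038 without SC replicate 1.

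The ratio of H2AZ1 to H2AZ2 counts within a library needs no scaling between libraries. In RNA it was 3.11, 2.53 and 2.69 in SC and 2.48, 2.02 and 2.09 in SH2, without overlap. In footprints it was 4.41, 6.33 and 5.18 in SC, 2.96, 2.79 and 3.35 in SH2, and 7.05, 4.88 and 4.85 in SH3, so that SH2 lay below both other groups. The difference between SH2 and SC in mean log2 ratio was −0.34 in RNA and −0.79 in footprints, each at the smallest p that a two-sided exact permutation test of 3 against 3 can give (0.1; 0.267 adjusted over 8 comparisons). Under SH3 it was −0.10 in RNA (exact permutation p = 0.4) and 0.07 in footprints (exact permutation p = 0.7).

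**Figure D2:**
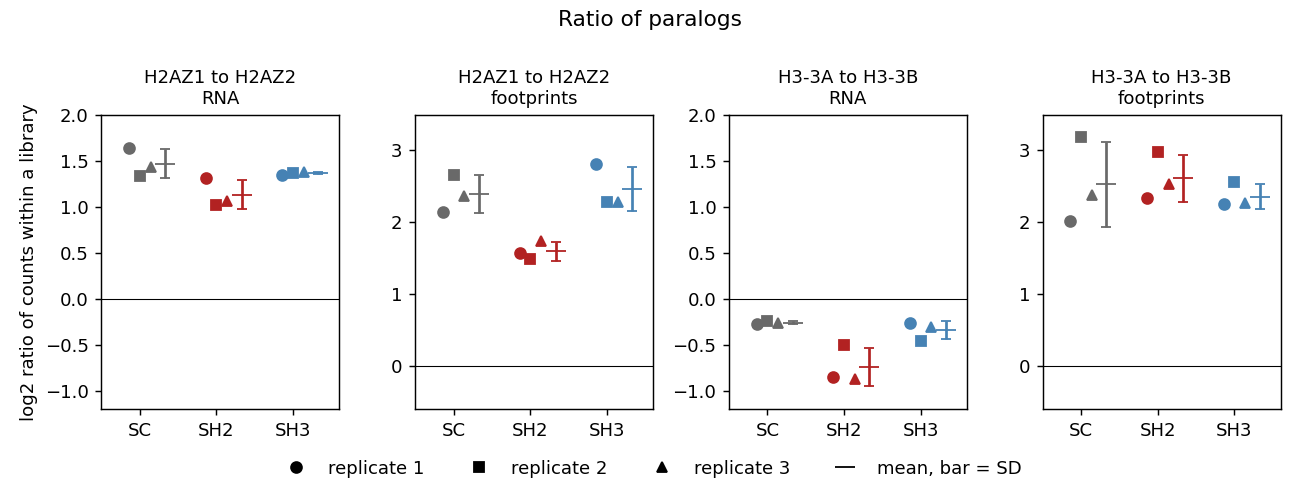
Log2 ratio of counts of the paralogs within each library (vertical axes), for H2AZ1 to H2AZ2 and H3-3A to H3-3B, in RNA and in footprints, with replicates as points and the mean ± SD (n = 3) as a bar. The SH2 libraries lie below SC in 3 of the 4 panels, and the footprint panel of H3-3A to H3-3B shows overlapping groups.

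H2AX, the histone phosphorylated at DNA breaks, was the gene of the 9 with the lowest footprints relative to SC under both hairpins. Its RNA was 92.5, 106 and 113 CPM in SC, 42.8, 36.3 and 66.5 in SH2, and 35.8, 38.0 and 40.7 in SH3. No hairpin library reached the SC range, and the highest of them, SH2 replicate 3, was also the RNA library with the most FBL left under a hairpin. The part of residual FBL in that value was not tested. The change in RNA was −1.09 ± 0.17 (adjusted p = 9.32e-05) under SH2 and −1.44 ± 0.17 (adjusted p = 1.61e-05) under SH3, with no call between the hairpins (0.35 ± 0.17, adjusted p = 0.126). That difference was 0.55 without SH2 replicate 2 (adjusted p = 0.0184, a call) and 0.064 without SH2 replicate 3 (adjusted p = 0.711).

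H2AX footprints were 97.6, 68.2 and 116 CPM in SC, 25.2, 26.6 and 40.1 in SH2, and 26.9, 22.9 and 30.1 in SH3. SC and the hairpins again did not overlap. The change was −1.63 ± 0.21 (adjusted p = 2.35e-05) under SH2, to 32.3% of SC, and −1.83 ± 0.22 (adjusted p = 2.32e-05) under SH3, to 28.1%. H2AX kept its calls in RNA and footprints against SC in all 15 alternatives of each comparison. It was the only 1 of the 9 called lower in footprints under both hairpins, against 12.0% of genes tested. In RNA, H2AX, H2AZ1 and H2AZ2 were called lower under both, 3 of 9 against 18.2% of genes tested.

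Of 12 genes listed for H2AX phosphorylation and reading, 11 were tested in RNA. Under SH2, 2 were called higher and 7 lower, against 31.1% and 30.4% of all genes tested. Under SH3, 2 were called higher and 1 lower, against 27.8% and 25.2%. TP53BP1, a reader of chromatin at breaks, rose by 0.45 ± 0.11 (adjusted p = 0.00201) on the log2 scale under SH2 and by 0.72 ± 0.11 under SH3. RNF168, the ubiquitin ligase that marks H2A near breaks, changed by −0.47 and −0.64, both called. In footprints TP53BP1 was called under SH3 (0.63, adjusted p = 0.00223) and not under SH2 (0.23, adjusted p = 0.190). RNF168 footprints were called under neither hairpin (−0.45, adjusted p = 0.0773, and −0.33, adjusted p = 0.214).

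H3-3A and H3-3B encode the same H3.3 protein from different genes. H3-3A RNA was 272, 288 and 318 CPM in SC, 191, 238 and 227 in SH2, and 260, 269 and 277 in SH3. SH2 was below all other libraries, and SH3 overlapped SC. The change was −0.42 ± 0.10 (adjusted p = 0.00247) under SH2 and −0.12 (adjusted p = 0.32) under SH3, and SH2 against SH3 was −0.30 ± 0.10 (adjusted p = 0.0314). That last call was lost in 4 of 15 alternatives, without SH2 replicate 1 or any 1 SH3 replicate.

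H3-3B RNA was 328, 342 and 382 CPM in SC, 344, 337 and 415 in SH2, and 312, 369 and 342 in SH3. All 3 groups overlapped, and no comparison was called (0.06 ± 0.11, adjusted p = 0.641, under SH2; −0.04, adjusted p = 0.777, under SH3). The H3-3A to H3-3B ratio of RNA counts was 0.829, 0.843 and 0.835 in SC against 0.556, 0.705 and 0.547 in SH2. The groups did not overlap (log2 difference −0.48, exact permutation p = 0.1, the smallest possible, 0.267 adjusted). Under SH3 the difference was −0.08 (exact permutation p = 0.3).

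The RNA difference between the H3.3 genes was not seen in footprints at this precision. H3-3A footprints ranged from 417 to 531 CPM in SC, 392 to 486 in SH2 and 393 to 436 in SH3, with log2 changes of −0.09 and −0.13. H3-3B footprints were 103, 58.6 and 80.1 CPM in SC, 77.4, 51.0 and 84.2 in SH2, and 82.5, 74.0 and 87.3 in SH3, with changes of −0.21 (adjusted p = 0.427) and −0.00 (adjusted p = 0.991). The footprint ratio of H3-3A to H3-3B changed by 0.09 under SH2 (exact permutation p = 0.9) and −0.17 under SH3 (exact permutation p = 0.8). Both H3.3 genes and H2AZ1 have processed pseudogenes, and how reads shared with such copies were assigned is not given in the sources used here.

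H1-10, which encodes the linker histone H1.10, fell in RNA under SH2. Its RNA was 40.5, 39.9 and 38.5 CPM in SC, 23.0, 27.4 and 27.1 in SH2, and 30.5, 36.2 and 32.7 in SH3, with no overlap between any of the groups. The change was −0.62 ± 0.11 (adjusted p = 0.000186) under SH2 and −0.26 ± 0.11 (adjusted p = 0.0518) under SH3. The SH3 value passed the threshold in 8 of 15 alternatives, and in the authors' deposited table it was −0.28 with an adjusted p of 0.0277. The hairpins' difference was −0.36 ± 0.11 (adjusted p = 0.016), a call lost in 3 of 15 alternatives, without SH2 replicate 1 or SH3 replicate 2 or 3. H1-10 footprints were 57.8, 34.5 and 50.8 CPM in SC, a wider spread than in SH2 (41.1, 37.5 and 48.2) or SH3 (45.7, 51.0 and 54.0), and were not called (−0.20 and 0.06).

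MACROH2A1, the macroH2A gene, was the gene of the 9 called higher in RNA. Its RNA was 198, 201 and 210 CPM in SC, 239, 232 and 256 in SH2, and 173, 196 and 193 in SH3. SH2 lay above SC and SC above SH3. The rise under SH2 was 0.26 ± 0.09 (adjusted p = 0.0195), a call lost in 4 of 15 alternatives (only the groups compared, and without SC replicate 1 or 2 or SH2 replicate 3), and the value under SH3 was −0.12 (adjusted p = 0.289). The hairpins differed by 0.37 ± 0.09 (adjusted p = 0.00422).

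MACROH2A1 footprints went the other way under SH2. They were 187, 151 and 172 CPM in SC, 148, 110 and 127 in SH2, and 126, 140 and 137 in SH3. Both hairpin groups were below SC. The fall under SH2 was −0.41 ± 0.14 (adjusted p = 0.0273), lost in 5 of 15 alternatives (only the groups compared, and without SC replicate 1 or 3 or SH2 replicate 2 or 3), and that under SH3 was not called (−0.34 ± 0.14, adjusted p = 0.0717), except without SC replicate 2 (−0.41, adjusted p = 0.0421). Of the 10335 genes tested in both kinds of library, 29 (0.281%) were called higher in RNA and lower in footprints under SH2, and MACROH2A1 was the 1 among the 9 genes.

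**Figure D3:**
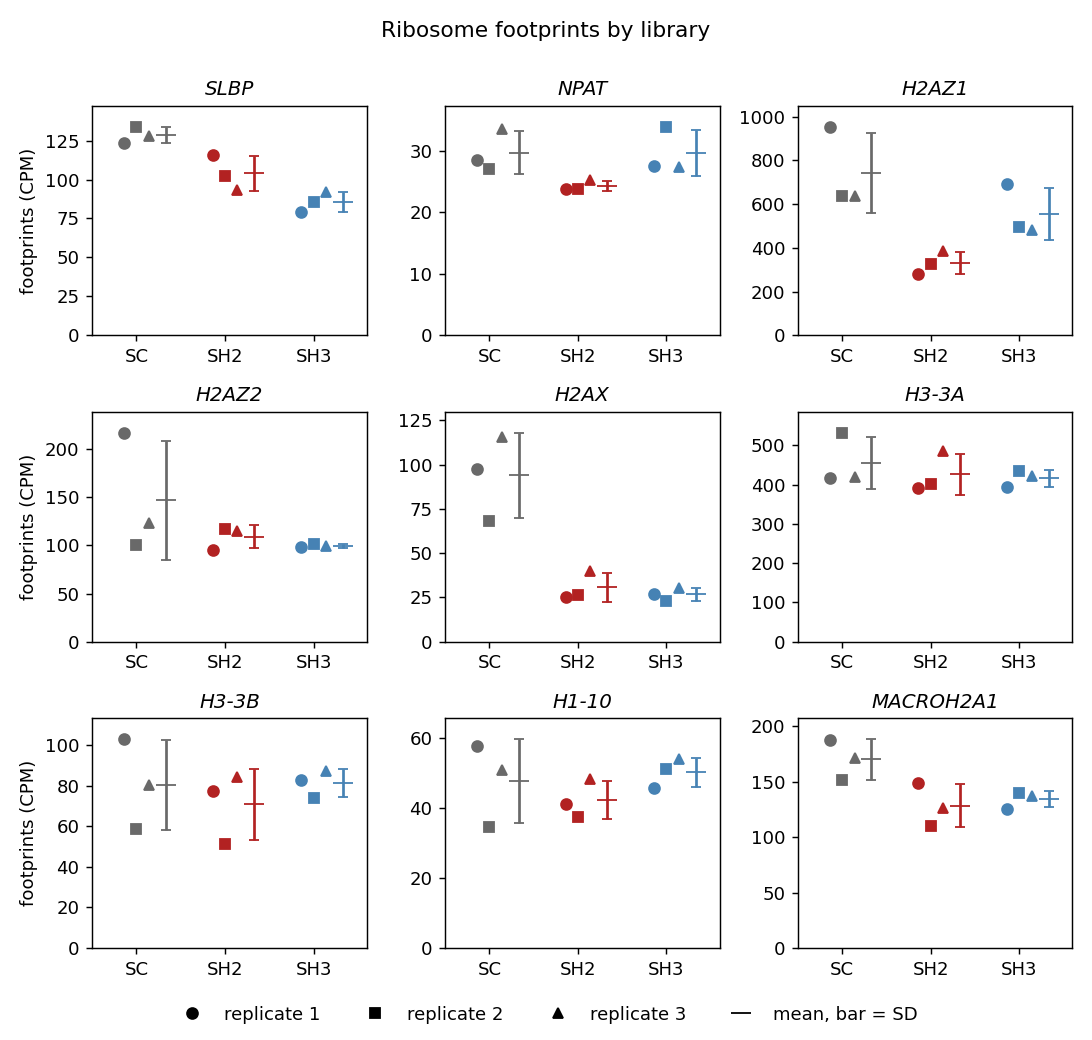
Ribosome footprints of the 9 genes in each RPF library (vertical axes, CPM scaled with TMM, each starting at 0) by treatment, with replicates as points and the mean ± SD (n = 3) as a bar. H2AX is low in all 6 hairpin libraries, and SC replicate 1 stands above the rest for H2AZ1 and H2AZ2.

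Translational efficiency, the footprints per RNA of a gene relative to all genes, was tested as the footprint change minus the RNA change. Of the 9 genes, 1 was called under SH2 and 0 under SH3, against 3.90% and 0.686% of the 12531 genes tested. Of the 12531, 2248 had an unadjusted p under 0.05 under SH2 and 1574 under SH3, and with DESeq2's Wald test 935 and 361 genes were called. With the lysate as a block, 191 and 23 of all genes and 0 of the 9 were called. The called gene was MACROH2A1, with footprint to RNA ratios of 0.948, 0.754 and 0.819 in SC, 0.621, 0.474 and 0.494 in SH2, and 0.729, 0.713 and 0.711 in SH3. SH2 was below SH3 and SH3 below SC, without overlap.

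The change for MACROH2A1 was −0.69 ± 0.16 (adjusted p = 0.0218) under SH2 and −0.22 (adjusted p = 0.639) under SH3. RNA and footprints of a lysate were matched by replicate number. Deviations of the matched libraries correlated at −0.49 and −0.46 in SC replicates 1 and 2, and at −0.30 and −0.31 in SH2 replicates 1 and 2. These negative values do not bear out the match, on which the ratios by lysate rest. With the lysate as a block the SH2 change was −0.68 and not called (adjusted p = 0.0530). In all the SH2 call was lost in 6 of 16 alternatives, also with only the groups compared and without SC replicate 1, SC replicate 3, SH2 replicate 2 or SH2 replicate 3 (adjusted p up to 0.119). The value stayed between −0.58 and −0.70 in those 6. The difference between the hairpins was −0.47 ± 0.16, not called (adjusted p = 0.244).

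H2AX had a ratio of 1.05, 0.645 and 1.03 in SC, 0.588, 0.733 and 0.603 in SH2, and 0.751, 0.604 and 0.742 in SH3. The groups overlapped through SC replicate 2, and its change was −0.56 ± 0.30 (adjusted p = 0.329) under SH2 and −0.39 ± 0.31 (adjusted p = 0.669) under SH3. SLBP ratios were 1.35, 1.48 and 1.36 in SC, 1.26, 1.28 and 0.978 in SH2, and 1.19, 1.23 and 1.28 in SH3. Both hairpin groups lay below SC, and neither was called (−0.27 ± 0.15, adjusted p = 0.344, and −0.16 ± 0.15, adjusted p = 0.725). For H2AZ2 the change under SH2 was 0.33 (adjusted p = 0.568), and 0.91 (adjusted p = 0.00693) without SC replicate 1, whose ratio of 2.42 stood against 0.784 and 0.970 in the other SC lysates. The remaining changes under SH2 ran from −0.29 (H3-3B) to 0.39 (H1-10), none called.

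**Figure D4:**
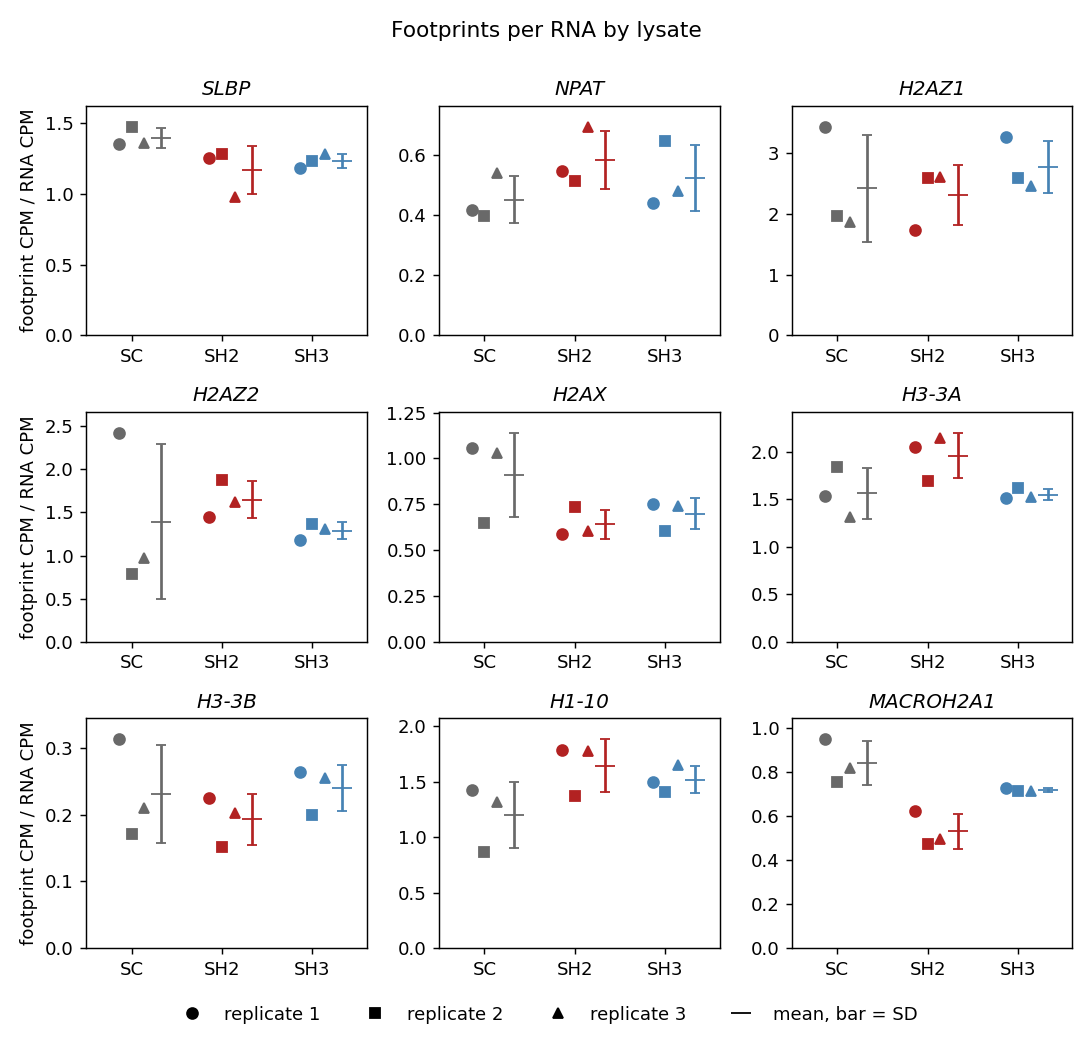
Footprint CPM divided by RNA CPM (vertical axes, each starting at 0) for the 9 genes by treatment, with replicates as points and the mean ± SD (n = 3) as a bar. Libraries of the same treatment and replicate number were taken as 1 lysate. MACROH2A1 is lower in all SH2 lysates than in SC, and for H2AZ2 SC replicate 1 lies apart at 2.42.

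In SC cells the genes differed widely in footprints per RNA. Over 10335 genes, H2AZ1 had a ratio of mean footprint to mean RNA CPM of 2.36, at the 95.9th percentile, and H3-3A 1.55, at the 83.2nd. H3-3B, which makes the same protein as H3-3A, had 0.230, at the 4.81st percentile. NPAT was at 0.449, the 18.4th percentile, and SLBP at 1.40, the 77.6th. H2AZ2, H2AX, H1-10 and MACROH2A1 lay between the 46.8th and 72.4th. A gene's length largely cancels in this ratio, but the share of its mRNA that is untranslated does not, so it is a description and not a measure of ribosome density.

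Between the hairpins, 6 of the 9 genes were called in RNA, 4 lower in SH2 than in SH3 (NPAT, H2AZ1, H3-3A and H1-10) and 2 higher (SLBP and MACROH2A1). In all, 39.3% of genes tested were called in that comparison. In translational efficiency 0 of the 9 were called between hairpins, against 0.0160% of genes tested, or 2 genes, with 1471 at an unadjusted p under 0.05 and 248 called by DESeq2's Wald test.

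**Figure D5:**
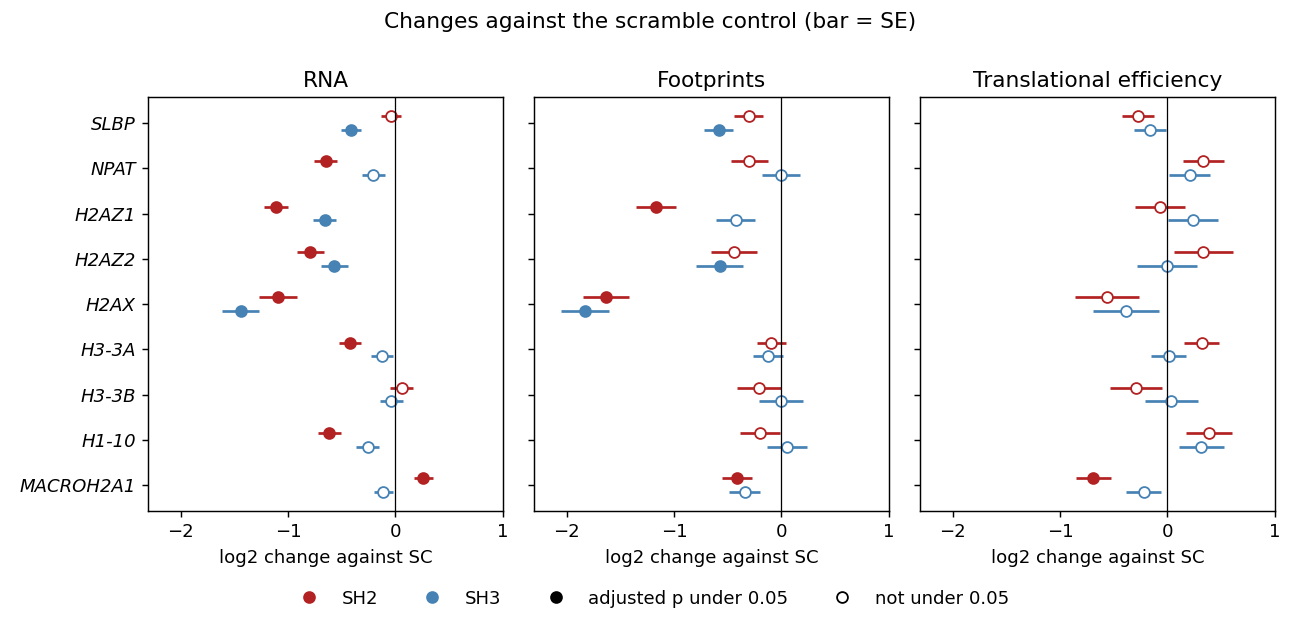
Log2 change against SC (horizontal axes, bars ± SE) in RNA, footprints and translational efficiency for the 9 genes, SH2 in red and SH3 in blue, with filled points for an adjusted p under 0.05. H2AX is filled under both hairpins in RNA and footprints, and MACROH2A1 under SH2 has a positive RNA change and negative changes in the other panels.

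The genes that SLBP and NPAT serve were mostly lower. Of 66 replication-dependent histone genes listed, 57 were in the table and 38 tested in RNA, where 33 were called lower under SH2 and 34 under SH3, with 0 higher under either and medians of −1.25 and −1.38. Those with the largest changes were H2BC14 (−2.72 and −2.71), H3C13 (−2.66 and −2.48), H3C3 (−2.49 and −2.34) and H2AC11 (−2.13 and −2.17). Many of these genes are near copies of one another, so the split of reads among them is uncertain. In footprints 31 and 32 of 35 tested were called lower. Over all genes tested, 30.4% were called lower in RNA under SH2 and 25.2% under SH3, and 23.2% and 19.0% in footprints.

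Of 33 genes for histone gene transcription, 3′-end processing and decay other than SLBP and NPAT, 16 were called lower and 8 higher in RNA under SH2, and 13 lower and 9 higher under SH3. Over all genes tested, 30.4% were called lower and 31.1% higher under SH2, and 25.2% lower and 27.8% higher under SH3. The medians of the 33 were −0.25 and 0.02. CCNE2, a cyclin E that with CDK2 phosphorylates NPAT, changed by −2.56 and −2.23 on the log2 scale under SH2 and SH3, and CDK2 by −1.35 and −0.89. SNRPE and SNRPF, ring proteins shared by spliceosomal snRNPs and the U7 snRNP that cuts histone mRNA, changed by −1.23 and −0.97 under SH2 and by −1.08 and −1.02 under SH3. All of these were called lower.

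Of 9 genes listed as other replacement or variant histones, 4 were tested in RNA, with 0 higher and 2 lower under SH2 and 1 higher and 3 lower under SH3. The shares over all genes tested were 31.1% higher and 30.4% lower under SH2, and 27.8% higher and 25.2% lower under SH3. CENPA, the centromeric H3, changed by −1.96 and −1.93, and H4-16 by −1.30 and −1.19, all called lower. H4-16 was put in this list and left out of the replication-dependent list. The values do not show that it is a replacement histone gene. The 26 chaperones and exchangers of replacement histones had 8 called lower and 5 higher under SH2, and 4 lower and 5 higher under SH3 (medians −0.13 and 0.07). These counts are close to or below the shares over all genes tested given above. HJURP, which deposits CENP-A, changed by −1.24 and −1.48, and ANP32E, which removes H2A.Z, by −1.10 and −1.15. UBN1, a subunit of the HIRA complex for H3.3, rose by 1.11 and 0.94, and VPS72, which binds H2A.Z in the SRCAP and p400 complexes, by 1.00 and 0.83. Of 11 chaperones that act behind the replication fork, 8 were called lower under SH2 and 3 under SH3, against 30.4% and 25.2% of all genes tested. Among them were CHAF1B (−1.71 and −1.24), ASF1B (−1.42 and −1.56) and MMS22L (−1.65 and −0.96).

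DNA replication genes were mostly lower in RNA. Of 44 listed, all tested in RNA, 42 were called lower under SH2 and 29 under SH3, with 0 higher under either. Over all genes tested, 30.4% and 25.2% were called lower. The medians of the 44 were −1.0 and −0.57, and −1.0 and −0.59 in footprints. There 37 and 25 of 43 tested were called lower, against 23.2% and 19.0% of all genes tested. RRM2, a subunit of ribonucleotide reductase, changed by −2.25 and −2.26, and TYMS, the thymidylate synthase, by −1.64 and −1.99. GINS1, part of the replicative helicase, changed by −2.39 and −1.24, and POLE2, a subunit of DNA polymerase epsilon, by −2.22 and −1.05. The part of fewer cells in S phase in the changes of the 9 genes was not tested.

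By the correlation of log2 CPM over the 9 RNA libraries, among 9174 genes with a mean of at least 10 CPM, the genes most like SLBP were CDKN2D (r = 0.987), PTMS (0.985) and CDCA4 (0.979). Those most like NPAT were RNF139 (0.996), ALG6 (0.990) and DENND5B (0.988). Those most like H2AZ1 were CENPO (0.989), FANCD2 (0.989) and NNMT (0.984), and those most like MACROH2A1 were FSCN1 (0.980), VASP (0.979) and TCEA2 (0.977). These values are descriptions over libraries that share 3 treatments, and carry no test.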

How the data were processed

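Cytoplasmic RNA and ribosome footprints were measured in 18 libraries. The authors deposited 1 table with raw read counts per gene, their DESeq2-normalised values (a signal: counts divided by size factors), and log2 fold changes and p-values of each hairpin against SC. Bowtie 1.2.2 and DESeq2 are named in the submitters' processing notes, with no role or parameters. The genome build, annotation and counting are not given in the sources used here. The authors' 3 columns per hairpin marked RD were identical for SH2 and SH3 and were not used.

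From the raw counts, edgeR 4.0.16 (R 4.3.3, limma 3.58.1) fitted all 9 libraries of a kind, or all 18 for translational efficiency (an interaction contrast), with filterByExpr, TMM and the quasi-likelihood test. p-values are two-sided and Benjamini-Hochberg adjusted over all genes tested, and SE is the absolute log2 change divided by the root of F. CPM is scaled with TMM within a kind. DESeq2 1.42.0 was an alternative, and scaling, filter, libraries in the fit, a replicate or lysate block and leaving out each replicate were the others. The code was tested on simulated data. Replicate counts differed by more than sampling noise (chi-square per degree of freedom 3.38 to 56.3), and each was counted as a sample. That spread does not show whether replicates were separate transductions. Among the SC RNA libraries, replicate 1 stood apart, at 56.3 and 49.1 against replicates 2 and 3, beside 11.5 between replicates 2 and 3. Deviations of same-numbered SC and SH2 libraries correlated at 0.25 to 0.36 in every pair in RNA and footprints, so these were taken as paired, from the data and not the labels. The main tests and the permutation tests of paralog ratios did not use this pairing. It entered only as an alternative, the replicate block. The replicate block changed no call of the 9 genes in SH2 against SC. For SC with SH3 and SH2 with SH3 some pairs were at or below 0.1 (lowest −0.083 in RNA and −0.117 in footprints). RNA and footprint libraries of the same treatment and number were taken as 1 lysate. Their deviations correlated at −0.49, −0.46 and 0.26 in SC replicates 1 to 3, and at −0.30, −0.31 and 0.50 in SH2. In SH3 they correlated at 0.42, 0.29 and 0.21. The ratios by lysate and the lysate block rest on this match by number, which negative values do not bear out. The biological coefficient of variation was 11.6% in RNA and 15.1% in footprints. Depth, 23469830 to 27629488 counts in RNA and 1662705 to 6098648 in footprints, limits precision most in footprints.

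The 9 genes and the gene lists were chosen with earlier results of these data known. Named besides the 9 genes, FBL and ATM are up to 4 genes per list, called in RNA in the same direction under both hairpins with the largest mean absolute change, and the 3 genes most correlated with SLBP, NPAT, H2AZ1 and MACROH2A1.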

Additional observations from a re-analysis of the deposited data

Results flagged for a closer look

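For 6 of the 9 genes the RNA change differed between the hairpins by the test of SH2 against SH3 in edgeR. Over all genes tested, 39.3% were called in that comparison. The log2 difference was −0.45 for H2AZ1, −0.45 for NPAT, −0.36 for H1-10 and −0.30 for H3-3A, each lower in SH2, and 0.37 for SLBP and 0.37 for MACROH2A1, each higher in SH2. In footprints the difference was called for H2AZ1 alone, at −0.74, also lower in SH2, against 23.8% of all genes tested. The RNA calls of H3-3A and H1-10 were lost in 4 and 3 of 15 alternatives, and the footprint call of H2AZ1 in 1 of 15. The tests do not tell a difference between the hairpins from a difference between the cell populations that carried them. FBL RNA itself was not called between them (0.72, adjusted p = 0.242).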

How the results depend on the processing

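Of 1242 recomputed changes of single genes, 1139 kept their direction and their side of the threshold, 34 fell short of it, 19 newly passed it and 50 changed sign, all 50 of changes that were not called. The causes of these shifts were not tested. With library totals in place of TMM the changes were 0.050 for SLBP RNA under SH2, 0.048 for H3-3B RNA under SH3, −0.029 for H3-3A footprints between hairpins and −0.014 for H3-3A efficiency under SH3. Under SH3 footprints of NPAT were 0.0026 with DESeq2 size factors, 0.064 with library totals, 0.0048 with the Wald test and 0.0045 with only the groups compared, and those of H3-3B 0.0048, 0.061, 0.013 and 0.0069. H2AZ2 efficiency under SH3 was 0.00091 with DESeq2 size factors, 0.0084 with the Wald test and 0.069 with the lysate block. Library totals moved the share of higher calls in efficiency under SH2 from 37.0% to 21.3%, and shifted the median of all genes in RNA to 0.11 under SH2 and 0.12 under SH3.

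For SH3 against SC and between hairpins, where the numbers were not taken to pair the samples, the replicate block changed 2 calls and the signs given here. With the replicate block H3-3B footprints under SH3 were 0.044, H2AZ2 efficiency under SH3 0.017, H2AZ2 footprints under SH3 −0.53 (adjusted p = 0.0504) and H1-10 RNA under SH3 −0.26 (adjusted p = 0.0348). The replicate block called 4 genes in efficiency between hairpins, against 2 without it.

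Counts of all genes called in efficiency moved by over 1.5 times under several settings. With only the groups compared, 0 of the 9 genes and 184 of all genes were called under SH2, 46 of all under SH3 and 36 between hairpins. The lysate block gave 0 of the 9 and 191 of all under SH2, 23 under SH3 and 0 between hairpins. The Wald test gave 935, 361 and 248, and no filter gave 35 between hairpins.

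Leaving out each replicate in turn, the 9 genes gave 2 to 5 calls in footprints under SH3, 0 to 1 between hairpins, and 0 to 1 in efficiency under SH2. All genes gave 1541 to 2928 footprint calls between hairpins (1541 without SH3 replicate 2), and in efficiency 110 to 555 under SH2 (110 without SH2 replicate 3), 10 to 244 under SH3 (10 without SC replicate 3, 244 without SC replicate 1) and 0 to 51 between hairpins (51 without SC replicate 1). Changes that crossed 0 ranged in RNA from −0.12 to 0.023 (SLBP, SH2), −0.064 to 0.12 (H3-3B, SH2) and −0.13 to 0.025 (H3-3B, SH3). In footprints they ranged under SH2 from −0.19 to 0.032 (H3-3A) and −0.38 to 0.011 (H3-3B), and under SH3 from −0.11 to 0.11 (NPAT), −0.17 to 0.0021 (H3-3A), −0.17 to 0.22 (H3-3B) and −0.10 to 0.23 (H1-10). Between hairpins they ranged from −0.034 to 0.31 (H2AX), −0.065 to 0.095 (H3-3A) and −0.18 to 0.036 (MACROH2A1). In efficiency they ranged from −0.23 to 0.26 (H2AZ1, SH2), −0.30 to 0.56 (H2AZ2, SH3), −0.10 to 0.13 (H3-3A, SH3), −0.12 to 0.31 (H3-3B, SH3) and −0.19 to 0.014 (SLBP, between hairpins). Footprint paralog log2 ratios ranged from −0.11 to 0.21 (H2A.Z, SH3), −0.17 to 0.41 (H3.3, SH2) and −0.42 to 0.16 (H3.3, SH3).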
